A study of Mus musculus with 4 samples.

Results

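Ligands and receptors of 1 signalling family were followed, the EGF family ligands and the ERBB receptors of the mouse, in lung epithelial cells after injury. The 10 members were taken by gene name from the 31053 genes counted in each library: 6 ligands (Areg, Hbegf, Ereg, Tgfa, Epgn and Btc) and 4 receptors (Egfr, Erbb2, Erbb3 and Erbb4). All 10 were present in both libraries. RNA and open chromatin had been measured in the same nuclei (10x multiome) from GFP+ alveolar type 2 (AT2) cells, sorted from lungs of male mice 8 days after bleomycin, a drug that damages the alveolar epithelium. Control mice were SftpcCreERT2; Rosa26mTmG, in which a tamoxifen-inducible Cre driven from the surfactant protein C gene turns on a membrane GFP reporter. CKO mice carried the same alleles and a floxed IP gene (IPF/F), the receptor for prostaglandin I2, encoded by Ptgir. Bleomycin, the Cre and the reporter were thus shared by both groups, and a Cre at Sftpc acts only where that gene is on. Each genotype was 1 library, with no number of mice stated, so no difference below was checked in a replicate and none was tested.

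The ligands of this family are made as membrane-bound precursors, and ADAM proteases cut them loose. Areg (amphiregulin), Tgfa (transforming growth factor alpha) and Epgn (epigen) act on EGFR. Hbegf (heparin-binding EGF-like growth factor), Ereg (epiregulin) and Btc (betacellulin) bind EGFR and ERBB4. ERBB2 has no known ligand of its own and works as a partner, ERBB3 has a weak kinase and depends on its partner, and ERBB3 and ERBB4 bind neuregulins. In the lung epithelium the family is known for roles in repair, and injured alveoli are resurfaced as AT2 cells turn into the thin alveolar type 1 (AT1) cells used for gas exchange.

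The Control library held 13569 barcodes and 48378328 UMIs (counted RNA molecules), the library labelled CKO 10925 barcodes and 30818808 UMIs, and 193 barcode sequences occurred in both. After filtering, 2173 and 3883 nuclei were kept, with a median of 2088 and 2402 UMIs. Despite the sort, alveolar epithelial nuclei were 94.4% of kept Control nuclei and 59.6% of those of the library labelled CKO, which also held neutrophil-like (489 nuclei), macrophage and monocyte-like (385) and T and NK-like (350) nuclei. Ptgir had 0 UMIs in Control alveolar nuclei and 1 in those labelled CKO, too few to check the label, so that library is called by its label throughout. Alveolar nuclei fell into AT2-like (1580 Control, 1316 labelled CKO), transitional-like (282 and 548; named from markers of the state between AT2 and AT1) and a cluster called AT1-scoring here (174 and 435). The last one scored highest on AT1 markers but kept no cell type name, because its leading genes held a marker of the transitional list and none of the AT1 list. The 12 AT2 markers summed to 11113 and 17325 CPM (UMIs per 1000000 nuclear-encoded UMIs) in AT2-like nuclei (Control, then labelled CKO). They summed to 2842 and 5123 in transitional-like and 3508 and 7351 in AT1-scoring nuclei. The transitional markers summed to 1259 and 1613 in AT2-like, 2429 and 2914 in transitional-like and 3089 and 3760 in AT1-scoring nuclei. AT1 markers summed to 998 and 1225 in transitional-like nuclei, below the 1041 and 1572 in AT2-like ones. The transitional-like name is thus a label by score, and a place between AT2 and AT1 is not shown. The 2 libraries' AT2-like nuclei lay mostly in different clusters: cluster 2 held 661 Control nuclei and 18 labelled CKO, cluster 3, which was shallow, 837 and 95, and cluster 4 82 and 1203.

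Promoter sequences are shown for Areg, Tgfa and Egfr, which are among the 7 members whose promoters were searched. Hbegf, Ereg and Erbb3 were not searched. They run from 250 bases before to 50 bases after the gene start, on the gene's strand, from RefSeq (GRCm38.p6). Areg lies at chr5:91139349-91139648, Tgfa at chr6:86194972-86195271 and Egfr at chr11:16751953-16752252, all on the plus strand. Capitals mark motifs found by a search of both strands. They are the cAMP response element (CRE), spelled TGACGTCA, and its shorter part TGACG. The GC box is GGGCGG. The TATA box is TATAAA. The others searched were the CCAAT box and AP-1, as TGACTCA or its reverse strand.
Areg: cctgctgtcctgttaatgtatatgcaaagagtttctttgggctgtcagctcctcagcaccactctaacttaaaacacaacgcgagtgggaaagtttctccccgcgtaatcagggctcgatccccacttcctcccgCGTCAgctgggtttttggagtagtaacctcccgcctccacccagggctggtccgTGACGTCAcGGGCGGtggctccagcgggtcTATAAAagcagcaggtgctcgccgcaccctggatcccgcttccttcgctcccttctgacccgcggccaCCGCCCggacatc
Tgfa: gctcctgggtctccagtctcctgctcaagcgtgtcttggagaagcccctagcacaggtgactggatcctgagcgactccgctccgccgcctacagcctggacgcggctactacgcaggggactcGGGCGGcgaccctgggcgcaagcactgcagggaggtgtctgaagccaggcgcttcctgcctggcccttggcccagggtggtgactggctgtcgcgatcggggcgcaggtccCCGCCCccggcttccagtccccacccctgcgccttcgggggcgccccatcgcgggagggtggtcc
Egfr: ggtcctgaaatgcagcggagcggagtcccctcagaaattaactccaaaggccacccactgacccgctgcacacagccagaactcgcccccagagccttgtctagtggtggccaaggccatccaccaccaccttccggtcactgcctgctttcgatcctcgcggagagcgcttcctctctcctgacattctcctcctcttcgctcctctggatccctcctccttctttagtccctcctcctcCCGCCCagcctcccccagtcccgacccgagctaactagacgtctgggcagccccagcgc
The Areg promoter held the whole CRE from base -61 to -54 before the start, a GC box beside it from -52 to -47, and TATAAA from -31 to -26. It was the 1 promoter of the 7 members searched with a whole CRE (the others were Epgn, Btc, Tgfa, Egfr, Erbb2 and Erbb4), a sequence held by 1.79% of 32851 promoters of the same length. The TGACG part, which lies inside the CRE, was in 4 of the 7 and in 20.8% of all promoters. TATAAA was in 2 of the 7 (Areg and Epgn) and in 13.6% of all. Tgfa and Egfr held GC boxes (35.7% of all promoters) and no TATAAA. AP-1 was in 0 of these 7 windows and in 5.2% of all promoters, and CCAAT was in 2 of the 7 and in 37.4% of all.

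Areg, the amphiregulin gene, was lowest in transitional-like nuclei of both libraries. Its level in AT2-like nuclei was 176 CPM (95% Poisson interval 164 to 189, from 784 UMIs) in the Control library and 144 CPM (131 to 157, 486 UMIs) in the library labelled CKO. In transitional-like nuclei it was 78.9 CPM (59.4 to 103) and 70.1 CPM (56.8 to 85.5). The transitional-like level was thus 0.448 of the AT2-like level in Control and 0.487 of it in the other library. The intervals of these classes did not overlap within either library. Neutrophil-like nuclei of the library labelled CKO held 73.9 CPM, about the transitional-like levels, which are not told apart from free RNA. Control had 1 neutrophil-like nucleus, so Control levels here and below are set beside those of the other library. The 57 T and NK-like nuclei of Control held 198 CPM of Areg (22 UMIs), so the Control AT2-like level is not told apart from free RNA either. AT1-scoring nuclei held 132 CPM (106 to 161) in Control and 175 CPM (157 to 196) in the library labelled CKO, so their place relative to AT2-like nuclei was not the same in both. These intervals, like all below, cover counting error only.

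Areg UMIs were concentrated in few nuclei. In Control alveolar nuclei, 107 of 2052 nuclei held 583 of the 958 Areg UMIs, and 1 nucleus held 27. In those labelled CKO, 101 of 2314 nuclei held 502 of 912 UMIs. With each nucleus thinned to 1000 UMIs, Areg was detected in 11.6% (9.86 to 13.5) of AT2-like, 8.2% (5.08 to 12.4) of transitional-like and 5.92% (2.87 to 10.6) of AT1-scoring Control nuclei. In the library labelled CKO these shares were 10.2%, 6.61% and 12.2%. Unthinned, the AT2-like shares were 20.4% and 18.6%. Thinning left out 399 shallower alveolar nuclei in Control and 215 labelled CKO. As a scale for free RNA, neutrophil-like nuclei of the library labelled CKO (median 1006 UMIs, against 2384 in its AT2-like nuclei) held Areg in 8.7% (5.39 to 13.1) of 230 thinned nuclei, and endothelial-like nuclei in 1.98% (0.241 to 6.97) of 101. The thinned share of each alveolar class in either library had an interval that overlapped the neutrophil-like one. None of these shares is told apart from free RNA, and no class order is drawn from them. This comparison, used again below, cannot tell whether a member is made in alveolar nuclei. The AT2 markers Sftpa1 and Scd1 stood in neutrophil-like nuclei at 0.999 and 0.992 of their alveolar level, so genes of AT2 cells can fail it as well.

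Hbegf, the heparin-binding ligand, had overlapping intervals across the classes in Control. Its summed level was lower in the library labelled CKO in each class. Control levels were 166 CPM in AT2-like (738 UMIs), 151 in transitional-like (105 UMIs) and 180 in AT1-scoring nuclei (126 UMIs), and those labelled CKO were 100, 113 and 145. The log2 ratio of the library labelled CKO over Control was -0.73 (-0.92 to -0.54) in AT2-like, -0.41 (-0.77 to -0.038) in transitional-like and -0.31 (-0.62 to 0.0049) in AT1-scoring nuclei, the last touching 0. In AT2-like nuclei thinned to 1000 UMIs, Hbegf was detected in 14.4% (12.5 to 16.5) of Control nuclei and 7.41% (5.98 to 9.06) of those labelled CKO. The latter share overlapped that of neutrophil-like nuclei, 6.52% (3.7 to 10.5), and is not told apart from free RNA. Thinned shares of transitional-like nuclei were 12.3% (8.45 to 17.1) in Control and 7.85% (5.62 to 10.6) in the other library. Those of AT1-scoring nuclei were 10.7% (6.44 to 16.3) and 12% (9.05 to 15.4), so by share this class was not lower. The cluster makeup of the AT2-like class moved with the difference in that class, as described below.

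The remaining ligands were sparse. Tgfa had 18.0 CPM (80 UMIs) in AT2-like Control nuclei and 34.4 CPM (116 UMIs) in those labelled CKO, and about the same level in transitional-like nuclei of both (53.0 and 52.0 CPM). AT1-scoring nuclei held 28.6 and 47.4 CPM of Tgfa, and neutrophil-like nuclei 39.4 CPM (27.0 to 55.7), which overlapped all 3 classes of the library labelled CKO. By summed level, transitional-like nuclei were above AT2-like ones in both libraries, 2.95-fold in Control and 1.51-fold in the other. The neutrophil-like level of Tgfa was above both AT2-like levels, and its interval held the Control transitional-like level. Thinned to 1000 UMIs, the neutrophil-like share, 3.91% (1.8 to 7.3), overlapped that of each alveolar class in both libraries (2.21% to 5.33%). No class order of Tgfa is therefore read. Btc gave 30 UMIs in Control alveolar nuclei and 61 in those labelled CKO, and no order of its classes can be read from 2 to 29 UMIs a class. Ereg, the epiregulin gene, had 47 UMIs (10.6 CPM) in AT2-like Control nuclei and 11 (3.26 CPM) in those labelled CKO, but 32 of the 47 came from 7 nuclei and 10 from 1 of them. Detected in thinned AT2-like nuclei, Ereg stood at 0.899% (0.449 to 1.6) and 0.426% (0.138 to 0.991), with overlapping intervals. AT1-scoring nuclei held 10 Ereg UMIs in Control and 40 in the library labelled CKO, 16 of the latter in 1 nucleus. Epgn had 1 UMI in Control alveolar nuclei and 5 in those labelled CKO, so it is given no fold.

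**Figure D1:**
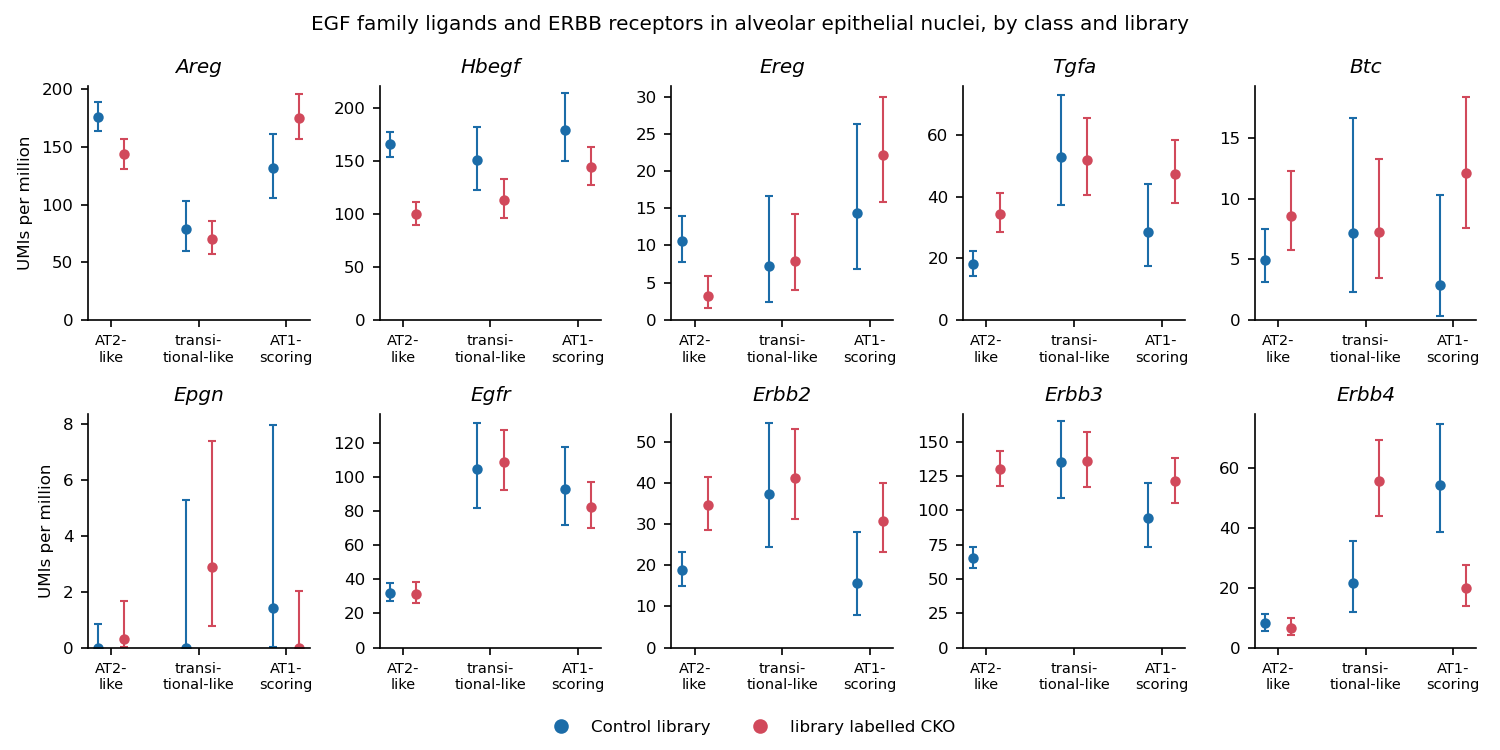
Level of each member (y axis, CPM) in AT2-like, transitional-like and AT1-scoring nuclei (x axis) of the Control library (blue) and the library labelled CKO (red). Points are summed UMIs over the nuclei of a class and bars 95% Poisson intervals. Egfr sits near 32 CPM in AT2-like nuclei and at 82.7 to 109 CPM in the other classes of both libraries, while Areg is lowest in transitional-like nuclei.

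Among the receptors, Egfr showed the same order in both libraries. AT2-like nuclei held 32.3 CPM (27.3 to 38.1, 144 UMIs) in Control and 31.7 CPM (26.0 to 38.3, 107 UMIs) in the library labelled CKO. Transitional-like nuclei held 105 CPM (82.0 to 132) and 109 CPM (92.4 to 128), and AT1-scoring nuclei 93.0 CPM (71.7 to 118) and 82.7 CPM (70.0 to 97.1). The AT2-like level was the lowest and overlapped neither of the others, and the other classes overlapped each other. For transitional-like and AT1-scoring nuclei together, Egfr was 3.06-fold above AT2-like nuclei in Control and 2.97-fold in the library labelled CKO. After thinning to 1000 UMIs, Egfr was detected in 2.78% and 2.47% of AT2-like, 7.38% and 8.47% of transitional-like, and 8.88% and 7.98% of AT1-scoring nuclei. The AT2-like shares lay at or below the 3.04% (1.23 to 6.17) of neutrophil-like nuclei, whose summed level of 35.7 CPM (23.9 to 51.3) also overlapped the AT2-like level. Egfr in AT2-like nuclei is therefore not told apart from free RNA here, and its fold in the other classes is against that level. Within each class the libraries differed by log2 ratios of -0.028 (-0.4 to 0.34), 0.059 (-0.35 to 0.48) and -0.17 (-0.6 to 0.27).

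Erbb3, the receptor that relies on its partner's kinase, differed between libraries in AT2-like nuclei and not detectably in transitional-like ones. AT2-like nuclei held 65.3 CPM (291 UMIs) in Control and 130 CPM (439 UMIs) in the library labelled CKO, a log2 ratio of 0.99 (0.78 to 1.21). Transitional-like nuclei held 135 and 136 CPM, a log2 ratio of 0.011 (-0.35 to 0.38), and AT1-scoring nuclei 94.4 and 121 CPM. Transitional-like nuclei were hence 2.06-fold above AT2-like nuclei in Control and 1.04-fold in the other library. Thinned shares in AT2-like nuclei were 8.17% (6.7 to 9.85) and 12% (10.2 to 14), and neutrophil-like nuclei held Erbb3 in 7.39% (4.36 to 11.6). The summed neutrophil-like level was 94.9 CPM, above that of AT2-like and about that of AT1-scoring Control nuclei. By this comparison, with the limit given for Areg, Erbb3 in AT2-like Control nuclei is not told apart from free RNA. The 2.06-fold and the ratio of 0.99 are against that level.

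Erbb2, the shared partner, had 18.9 CPM (84 UMIs) in AT2-like Control nuclei and 34.7 CPM (117 UMIs) in those labelled CKO, a log2 ratio of 0.88 (0.46 to 1.3), and 37.3 and 41.2 CPM in transitional-like nuclei. Neutrophil-like nuclei held 46.8 CPM of Erbb2, above each of these, so no class order of Erbb2 is read. Erbb4, a neuregulin receptor, was lowest in the AT2-like class of both libraries (8.08 and 6.52 CPM), though its clusters differed, as given below. It was 21.5 CPM (15 UMIs) in transitional-like Control nuclei and 55.6 CPM (77 UMIs) in those labelled CKO, whereas AT1-scoring nuclei held 54.3 CPM (38 UMIs) and 19.9 CPM (36 UMIs). Of the 38 Control UMIs, 36 came from 5 nuclei, and the thinned shares of AT1-scoring nuclei, 3.55% (1.31 to 7.57) and 1.64% (0.663 to 3.36), overlapped each other and the 1.3% (0.27 to 3.76) of neutrophil-like nuclei. The boundary between transitional-like and AT1-scoring nuclei moved between clusterings, so the joined classes are given as well. Joined, Erbb4 was 4.7-fold above AT2-like nuclei in Control and 5.42-fold in the library labelled CKO, log2 ratios of 2.23 and 2.44. With the members left among the genes used for clustering the Control ratio moved to 3.05, and over all alternatives the ratios ran from 2.18 to 3.05 and from 1.92 to 2.92. Neutrophil-like nuclei held 19.7 CPM of Erbb4 (11.3 to 32.0), above both AT2-like levels and about that of AT1-scoring nuclei labelled CKO. Those levels are not told apart from free RNA, and these folds are against such a level.

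Counted over all genes, 9 members had enough UMIs in the contrast of transitional-like over AT2-like nuclei. Egfr and Erbb4 were at least 2-fold higher in both libraries, as were 7.61% of the 10197 genes counted, and Areg was at least 2-fold lower in both, as were 3.54%. For AT1-scoring over AT2-like nuclei, Egfr and Erbb4 were again at least 2-fold higher (5.62% of 10130 genes) and no member was lower (3.19%). The fold of 2 stands in for a test, which 1 library per genotype does not allow.

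Over all alveolar epithelial nuclei, Areg and Hbegf were lower in the library labelled CKO and several members were higher. Areg stood at 161 CPM in Control and 137 CPM in the library labelled CKO, a log2 ratio of -0.23 (-0.36 to -0.096), and Hbegf at 164 and 115 CPM, -0.51 (-0.64 to -0.37). Ereg, at 11.6 and 9.63 CPM, gave -0.27 with an interval that included 0 (-0.78 to 0.25). Tgfa (24.0 and 41.8 CPM) gave 0.80 (0.51 to 1.1) and Btc (5.03 and 9.17 CPM) 0.87 (0.21 to 1.55). The receptors gave 0.36 for Egfr, 0.76 for Erbb2, 0.71 for Erbb3 and 0.44 for Erbb4. The median over all 13633 genes with at least 20 UMIs was 0.47, and over the 9 members that passed it was 0.44. No member was 2-fold apart, where 17.5% of genes were at least 2-fold higher and 3.12% at least 2-fold lower, and the receptors' ratios lay on both sides of the median of all genes. Scaled to the median of ratios in place of the total, Areg gave -0.67 and Hbegf -0.95, Erbb3 0.27, Erbb4 0.00, and Egfr changed direction, to -0.08. Egfr and Erbb4 also turned, to -0.06 and -0.20, when Control classes were weighted to the class makeup of the other library, and Areg then stood at -0.07. Markers of other cells differed as well: neutrophil markers summed to 1.34 CPM in Control alveolar nuclei (4 of 8 at 0) and 108 CPM in the others, and club cell markers to 334 and 758 CPM. Their part in these ratios was not tested.

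**Figure D2:**
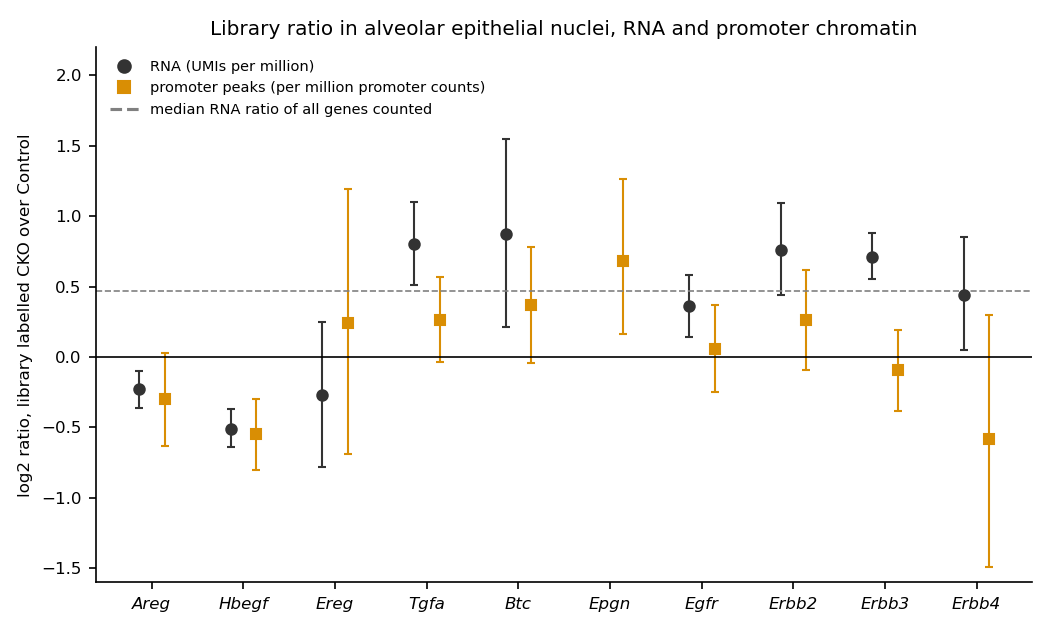
Log2 ratio of the library labelled CKO over Control in alveolar epithelial nuclei (y axis) for RNA (dark circles) and for peaks at the promoter (orange squares), per member (x axis). Bars are 95% intervals for counting error and the dashed line is the median RNA ratio of all genes counted, 0.47. Hbegf lies below 0 in RNA and chromatin, and Epgn has too few UMIs for an RNA value.

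Within AT2-like clusters that held both libraries, the picture for the ligands differed from that over the class. These values were looked at after the class values had been seen. In cluster 4, Hbegf had 105 CPM (33 UMIs) in 82 Control nuclei and 98.3 CPM (315 UMIs) in 1203 nuclei labelled CKO, a log2 ratio of -0.10 (-0.62 to 0.47). In cluster 3 it was -0.46 (-1.33 to 0.29), from 196 and 15 UMIs. Areg had 105 and 143 CPM in cluster 4, a log2 ratio of 0.44 (-0.07 to 1.0), and 105 and 208 CPM in cluster 3, 0.99 (0.31 to 1.62), the opposite direction to the class value of -0.29. Tgfa had 25.5 and 34.7 CPM in cluster 4, 0.44 (-0.59 to 1.69), from 8 Control UMIs. Cluster 2, nearly all Control, held 210 CPM of Areg and 169 CPM of Hbegf. Erbb3 kept its direction in cluster 4, with 76.5 and 133 CPM and a log2 ratio of 0.80 (0.21 to 1.46). It did not in cluster 3, where 7 UMIs labelled CKO gave -0.37 (-1.73 to 0.73). Erbb4 had 44.6 and 5.31 CPM in cluster 4, a log2 ratio of -3.07 (-4.18 to -1.94), from 14 and 17 UMIs. In cluster 3 it had 8.8 and 41.7 CPM, 2.24 (0.35 to 3.93), from 10 and 5 UMIs. The lower AT2-like levels of Areg and Hbegf thus moved with which clusters each library filled, and genotype and cluster makeup cannot be told apart with 1 library each.

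**Figure D3:**
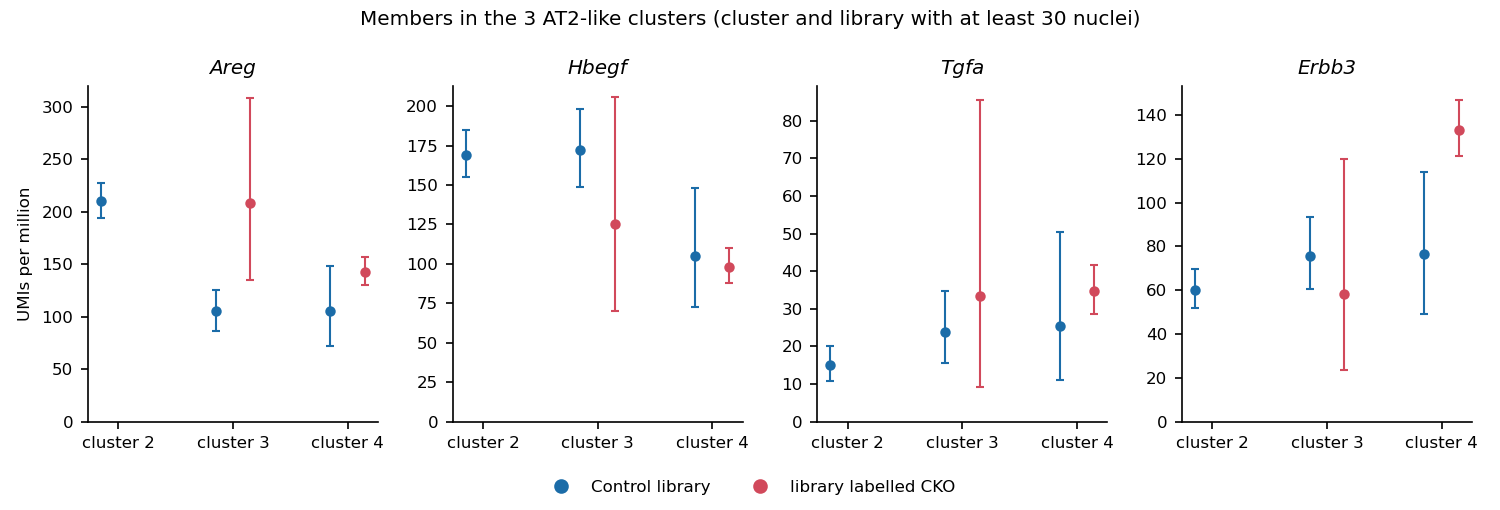
Level of Areg, Hbegf, Tgfa and Erbb3 (y axis, CPM) in the 3 AT2-like clusters (x axis) of the Control library (blue) and the library labelled CKO (red), with 95% Poisson intervals. In cluster 4 Hbegf is 105 and 98.3 CPM, Areg is higher in the library labelled CKO in clusters 3 and 4, and cluster 2 has a Control value alone because only 18 nuclei labelled CKO fell in it.

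Outside the epithelium, fibroblast-like nuclei of the library labelled CKO stood out for Egfr and Ereg. Egfr had 497 CPM (415 to 590, 130 UMIs in 56 nuclei), 8.09-fold the alveolar level, and was detected in 71.4% of these nuclei (median 5128 UMIs). Thinned to 1000 UMIs, Egfr was detected in 30.2% (18.3 to 44.3) of 53 of them. Ereg had 145 CPM (38 UMIs), 15.1-fold the alveolar level, with 36 of the UMIs in 5 nuclei and 17 in 1. Epgn, Btc and Erbb4 had 0 UMIs there, which allows up to 11.5 CPM. Free RNA can place UMIs in any nucleus, and the 12 AT2 markers were used as a scale. Whether fibroblasts lack all 12 was not tested. Their level in fibroblast-like nuclei was 0.0637 (Sftpc) to 0.387 (Hc) of the alveolar level. Egfr and Ereg lay far above that range and Areg (0.195), Tgfa (0.365) and Erbb3 (0.179) inside it. Hbegf (0.728, with 0.454 at the lower bound) was above it too, from 22 UMIs of which 11 lay in 1 nucleus. Erbb2 (0.657, from 6 UMIs) was above it with an interval that reached into it. The Control library had 7 fibroblast-like nuclei, too few for a value. Among ciliated-like nuclei labelled CKO the markers ran from 0.268 to 0.473. Egfr (0.875, with 0.529 at the lower bound), Erbb2 (1.0, 0.524) and Erbb4 (1.45, 0.709, from 11 UMIs) lay above that range. Areg (0.665), Ereg, Tgfa, Btc and Erbb3 were above it with intervals that reached into it, and Hbegf (0.395) was inside it. In endothelial-like nuclei Ereg (1.36), Egfr (0.745) and Erbb2 (0.655) were above the markers' 0.171 to 0.549, with intervals that reached into them.

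In the immune classes of the library labelled CKO given here, most members lay inside the range of the AT2 markers. In neutrophil-like nuclei the AT2 markers stood at 0.485 to 0.999 of their alveolar level. Areg (0.539), Hbegf (0.758) and Erbb3 (0.741) fell inside that span, which is too wide to tell free RNA from RNA made in these nuclei. Erbb2 (1.34, with 0.926 at the lower bound) was above it with an interval that reached into it. In macrophage and monocyte-like nuclei the markers ran from 0.301 to 0.629, and Ereg, with 22.4 CPM and 2.33-fold (1.38 or more at the lower bound) the alveolar level, was above it, 10 of its 23 UMIs being in 1 nucleus. Egfr in these nuclei (0.413) was inside the span. Erbb4 (0.913, with 0.533 at the lower bound) rested on 3 nuclei that held 15 of its 19 UMIs. In T and NK-like nuclei, Egfr at 0.812 (0.572 at the lower bound), Hbegf at 0.702 (0.537) and Erbb4 at 0.675 (0.329) were above the markers' 0.248 to 0.627, with intervals that reached into them.

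**Figure D4:**
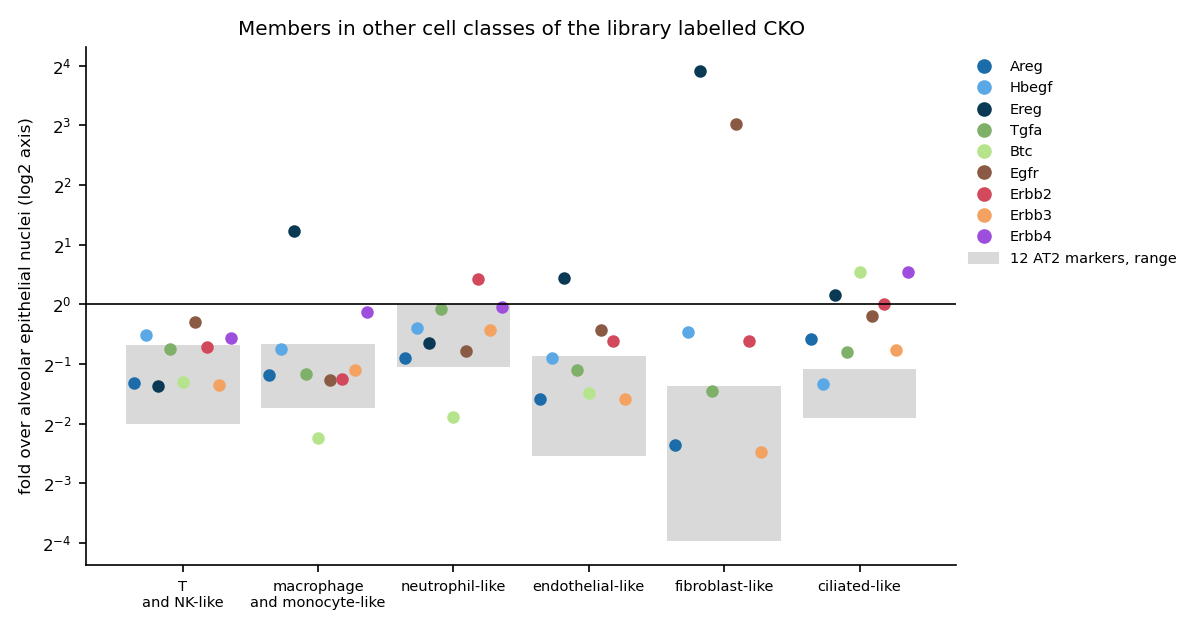
Level of each member in 6 other cell classes of the library labelled CKO as a fold over the alveolar epithelial level (y axis, log2 scale), with the range of the 12 AT2 markers in grey as a scale for free RNA. Members with 0 UMIs in a class are not drawn, nor is Epgn. Ereg at 15.1-fold and Egfr at 8.09-fold in fibroblast-like nuclei lie furthest above the grey range, and members also lie above it in each of the other classes.

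Chromatin at the promoters was read from peaks within 1000 bases of each gene start, as counts per 1000000 counts in all promoter peaks (promoter CPM). Most nonzero values were even (81.3% in Control and 85.2% in the library labelled CKO), so counts were divided by 2 for the intervals. The Areg peak, at chr5:91139187-91140095 over the start, held 340 counts in 165 Control nuclei (75.0 promoter CPM) and 295 in 144 nuclei labelled CKO (60.8 promoter CPM), a log2 ratio of -0.30 (-0.63 to 0.029). Per 1000000 counts in regions called in both libraries (region CPM), the same peak gave 37.0 and 27.1, a log2 ratio of -0.45 (-0.77 to -0.12), so whether its interval reached 0 depended on the scaling. Within Control, Areg promoter counts were lower in transitional-like than in AT2-like nuclei by a log2 ratio of -0.63 (-1.5 to 0.14), and in the library labelled CKO by -0.50 (-1.22 to 0.15). The direction was that of the RNA in both libraries, and both intervals included 0.

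Hbegf had both RNA and promoter counts lower in the library labelled CKO, with neither interval reaching 0. Its promoter peaks gave 140 promoter CPM in Control and 95.9 in the library labelled CKO, a log2 ratio of -0.55 (-0.8 to -0.3), beside -0.51 for RNA. A peak count was found in 283 of 2052 Control nuclei and 226 of 2314 labelled CKO, although the latter were deeper (a median of 2716 and 3906 peak counts per nucleus). Epgn, almost without UMIs, had 20.5 and 32.8 promoter CPM, a log2 ratio of 0.68 (0.16 to 1.26). Tgfa gave 0.26 (-0.038 to 0.57), Btc 0.37 (-0.044 to 0.78), Erbb2 0.26 (-0.09 to 0.62) and Ereg 0.24 (-0.69 to 1.19). Erbb3, with 92.4 and 86.6 promoter CPM, gave -0.094 (-0.38 to 0.19), where its RNA gave 0.71, and Erbb4, from 56 and 40 counts, -0.58 (-1.49 to 0.3).

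Egfr did not show at its promoter the class order seen in RNA. Promoter counts in transitional-like nuclei were not above AT2-like nuclei in Control, with a log2 ratio of -0.20 (-1.0 to 0.51), and were below them in the library labelled CKO, -1.06 (-1.86 to -0.41). Peaks had been called per library, and near the Egfr start Control had 1 peak of 663 bases and the library labelled CKO 2 of 1150 bases in all. Over the window the libraries gave 72.4 and 75.5 promoter CPM, a log2 ratio of 0.06 (-0.25 to 0.37). Over the region chr11:16751363-16752057, where peaks of both overlapped, they gave 328 and 222 counts, a log2 ratio of -0.81 (-1.17 to -0.45) in region CPM. On the promoter scale, with the second peak, called in the library labelled CKO alone, left out, the ratio was -0.66. Inside the gene, 17870 bases from the start, a region had 54.7 region CPM in transitional-like and 23.6 in AT2-like Control nuclei, a log2 ratio of 1.22 (0.55 to 1.82). In the library labelled CKO the same region gave 24.8 and 17.3, 0.52 (-0.17 to 1.23).

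**Figure D5:**
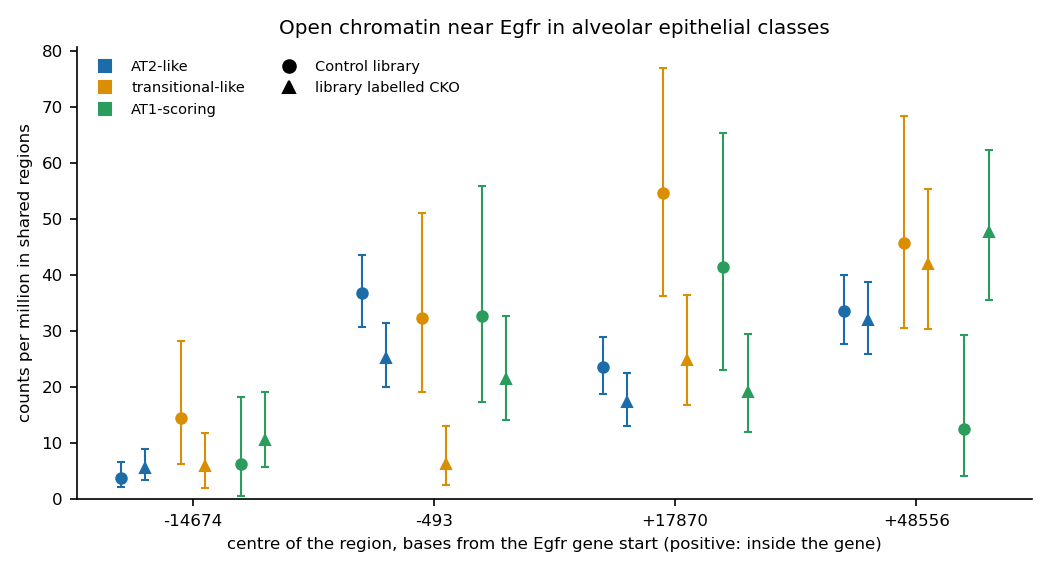
Region CPM, over regions called in both libraries (y axis), for the 4 regions within 50 kb of the Egfr start with at least 100 counts (x axis, bases from the start), in AT2-like, transitional-like and AT1-scoring nuclei of the Control library (circles) and the library labelled CKO (triangles). Bars are 95% intervals from counts divided by 2. The region at +17870 is higher in transitional-like than in AT2-like Control nuclei, and the one at -493 is lowest, at 6.32, in transitional-like nuclei labelled CKO.

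Within 50 kb of the members' starts, 115 regions were called, 84 of them in both libraries, and 53 of these had at least 100 counts in alveolar nuclei. Of the 53, 4 were at least 2-fold higher in the library labelled CKO and 0 at least 2-fold lower, against 4.23% and 1.31% of 44010 regions. The 4 were 1 near Hbegf (log2 ratio 1.61, 0.7 to 2.62), 1 near Epgn (1.2, 0.28 to 2.19) and 2 near Erbb2 (1.04 and 1.14), each with 26 to 36 Control counts. The Hbegf region thus went the other way from that gene's promoter and RNA. So did regions at 1659 (0.44, 0.1 to 0.8), -6361 (0.52, 0.12 to 0.91) and -14177 bases (0.94, 0.21 to 1.68) from the Hbegf start. The region at 7677 bases gave -0.74 (-1.28 to -0.19). Apart from the promoter, the remaining Hbegf regions with enough counts had intervals that included 0.

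The rest of the pathway was followed by fixed lists over alveolar nuclei, with a 2-fold difference as the mark. Over all genes, 17.5% were at least 2-fold higher in the library labelled CKO and 3.12% at least 2-fold lower, and the median was 0.47. In each list the genes named as highest and lowest are those among members with at least 100 UMIs. Of 5 other ligands, 2 were higher and 0 lower (median 0.37): Nrg2 gave 1.6 and Nrg4 1.28, each from 27 UMIs in the library labelled CKO, while Egf gave -0.16 and Nrg3 -0.03. Nrg1, a neuregulin that binds ERBB3 and ERBB4, had 162 and 210 CPM, a log2 ratio of 0.37 (0.25 to 0.49). By class, Nrg1 had 56.1 and 56.6 CPM in AT2-like, 416 and 269 in transitional-like and 492 and 458 in AT1-scoring nuclei. Neutrophil-like nuclei labelled CKO held 137 CPM of Nrg1, above the AT2-like level, and endothelial-like ones 35.9, below it. Like that of Egfr, the AT2-like level of Nrg1 was the lowest of these classes and is not told apart from free RNA. Of 10 genes for ligand shedding, 1 was higher (Adam8, 1.35 from 77 UMIs, named after its value was seen) and 0 lower (median 0.40), a smaller share than over all genes. Adam10, a protease of these ligands, gave 0.85 and Adam9 0.68, and the lowest were Rhbdf1 (0.083) and Rhbdf2 (-0.15), adaptors of the shedding protease ADAM17.

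Of 17 feedback inhibitors, 1 was higher and 0 lower (median 0.56), below the 17.5% over all genes. Spred1 gave 1.21 (1.11 to 1.31) and Errfi1, which binds and blocks the EGFR kinase, 0.93, from 850 and 1617 CPM. The lowest of those with at least 100 UMIs were Spred2 (-0.25) and Spred3 (-0.14). Of 25 adaptors and kinases, 1 was higher and 0 lower (median 0.35), again below 17.5%, led by Hras (1.45) and Akt1 (1.0) with Stat3 (-0.67) lowest. Of 11 transcripts that ERK signalling is known to induce, 3 were higher and 1 lower (median 0.29), beside 17.5% and 3.12% of all genes. Plaur gave 1.27, Ccnd1 1.22 and Etv4 (named after its value was seen) 1.13, whereas Egr1, an immediate early gene, stood at 527 CPM in Control and 68.3 CPM in the library labelled CKO, a log2 ratio of -2.95 (-3.09 to -2.81), and Fosl1 gave -0.96. The members of this list therefore did not share a direction.

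The genes most like the best-counted ligand and receptor were found by Pearson correlation of log2(CPM + 1) over 10 pairs of class and library, which share 2 libraries and their depths. For Areg they were Nav2 (0.977), Cacna1c (0.962), Mecom (0.957), Arfgef3 (0.954) and Sorcs2 (0.944). For Erbb3 they were Tfcp2 (0.971), Mafg (0.938), Mal2 (0.935), Socs6 (0.928) and Dlg5 (0.925). Within nuclei thinned to 1000 UMIs, Hbegf was detected in Control in 11.9% (7.54 to 17.7) of alveolar nuclei with Areg and 13.8% of those without, shares whose difference lay within the interval. In the library labelled CKO the shares were 14% (9.59 to 19.5) and 7.98%, so the libraries did not give the same picture.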

How the data were processed

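The deposited values were raw counts: UMIs per gene and chromatin counts per peak, made with Cell Ranger ARC 2.0.1 per the file headers, and the 2 libraries hold different peak sets. The submitters' processing notes also name Seurat 4.1.0, Signac 1.6.0, GRCm38 and GRCm39, with no step. Gene starts in the files match GRCm38. The cell calling step is not given in the sources used here. The filter required UMIs between 500 and 25000, detection of 300 or more genes, peak counts between 1000 and 100000, and less than 20% mitochondrial UMIs. At or over the last limit were 8407 of 13569 Control barcodes and 4365 of 10925 labelled CKO. Scrublet called 12 and 0 doublets, so doublets were in effect kept. Both libraries were clustered together on RNA in scanpy 1.11.5 (2000 variable genes without the members and pathway lists, 30 components, 15 neighbours, Leiden resolution 0.6) and named from 18 marker lists. A name needed at least 3 detected markers and a score (mean log2 fold of the markers over the other clusters) of at least 0.3.

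UMIs were summed by class and library and scaled to CPM on nuclear-encoded UMIs. Intervals are exact 95% intervals (Poisson, Clopper-Pearson or conditional-binomial, in scipy 1.17.1). They were run on simulated counts drawn from the distributions they assume, without the clumping of UMIs in few nuclei. That checks the code and cannot show how well they cover the spread in these data. The floor is 3 counts. A class was planned to enter with at least 100 nuclei, and classes with 30 or more were added after seeing the data, as was the split by AT2-like cluster. Chromatin intervals use counts divided by 2, a change from the plan made when most values proved even. Genes needed at least 20 UMIs and regions at least 100 counts. The genes named are all members, all other ligands, the 2 highest and 2 lowest of each pathway list with at least 100 UMIs, and the 5 genes most like 1 ligand and 1 receptor (at least 500 UMIs). One gene that this rule names is not reported here. The members and lists were chosen with earlier results of these data known. RefSeq promoters for 7 members were used.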

Additional observations from a re-analysis of the deposited data

Results flagged for a closer look

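For Areg and Erbb4 the 2 libraries differed in opposite directions in different classes, with neither interval reaching 0, and the difference itself was not tested. The log2 ratio of the library labelled CKO over Control for Areg was 0.41 (0.076 to 0.77) in AT1-scoring and -0.29 (-0.46 to -0.12) in AT2-like nuclei, a difference of 0.7. For Erbb4 it was 1.37 (0.56 to 2.28) in transitional-like and -1.45 (-2.15 to -0.76) in AT1-scoring nuclei, a difference of 2.82. Of the 38 Erbb4 UMIs of AT1-scoring Control nuclei, 36 lay in 5 nuclei. Within AT2-like clusters Erbb4 also went both ways, 2.24 (0.35 to 3.93) in cluster 3 and -3.07 (-4.18 to -1.94) in cluster 4, from few UMIs.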

How the results depend on the processing

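The higher Egfr level of transitional-like and AT1-scoring nuclei over AT2-like nuclei held under all 9 alternatives (filters, doublets, clustering, the shallow cluster left out), with log2 ratios of 1.45 to 1.73 in Control and 1.44 to 1.75 in the library labelled CKO. Of 162 such class ratios over 9 members, 151 stayed inside the interval first given and 11 moved outside it, 6 of them for Hbegf in Control (to between 0.22 and 0.37 from about 0), and Areg in the library labelled CKO moved from -0.15 to -0.74 with at least 2000 UMIs per nucleus. Of 126 library ratios recomputed over alveolar nuclei, 108 stayed inside the interval first given, 15 moved outside it and 3 reversed. Scaling to the median of ratios moved Areg to -0.67, Hbegf to -0.95, Tgfa to 0.36, Erbb2 to 0.32, Erbb3 to 0.27 and Erbb4 to 0.0, and reversed Egfr to -0.08. Weighting Control to the other library's class makeup moved Areg to -0.07 and Erbb3 to 0.53 and reversed Egfr to -0.06 and Erbb4 to -0.2. Without the mitochondrial limit Areg was at 0.0 and Egfr at 0.71. Without any filter Tgfa was at 1.17, and with nuclei thinned to 500 UMIs Tgfa was at 1.23 and Ereg at -1.75. Without Gm42418 and AY036118 in the total Areg was at -0.37, and by the mean of per-nucleus CPM Erbb4 was at 1.04. The count of members 2-fold apart, 0 in the report, was 1 without the mitochondrial limit, without any filter, by per-nucleus CPM and without the shallow cluster (chosen after seeing the data), and 3 after thinning. At a minimum of 100 UMIs, 0 other ligands and 0 shedding genes were 2-fold higher. The Egfr promoter ratio moved to -0.66 over shared regions only, and the other 29 promoter values stayed within their intervals. The cause was not tested in any of these. No paired analysis was possible because each genotype has 1 library, and for the same reason no replicate could be left out. Depth limits Epgn, Btc and Ereg, and shares of nuclei with a UMI fell on thinning by construction.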
